A study of Mus musculus with 8 samples.

Results

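The myosin light chains and the enzymes that act on them were examined in mouse hearts at E18.5, 4 from WT and 4 from SIRT1 KO embryos. The list held 10 genes, the light chains *Myl1*, *Myl2*, *Myl3*, *Myl4*, *Myl6*, *Myl7* and *Myl9*, the light chain kinases *Mylk* and *Mylk3*, and *Mylip*, and every non-control probe whose accession mapped to one of them was kept. Of the 41174 probes on the array 15 mapped to 9 of these genes, and none was matched to *Mylk3*. Of these 15, 14 passed the filter, which asked that a probe be well above background on 4 or more arrays, and were tested, among 25624 probes tested in all. The other was a second *Mylip* probe (A_52_P248343), which no array measured well above background.

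Both groups were untreated C57BL/6 embryos of dams on a chow diet, bred from heterozygous parents, and hearts of both sexes were used. The deletion in the SIRT1 KO embryos was germ-line and whole-body, so that it was not limited to cardiomyocytes. Whole hearts were used, 1 to a one-color Agilent array, and no dissection of the chambers is described. Intensities were put on a log2 scale and each array was lowered by its own 75th percentile, so that a log2 signal of 0 is that percentile.

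The 4 WT arrays share 1 slide and the 4 arrays labelled SIRT1 KO the other, scanned on different days, so that genotype cannot be told apart from slide or scan day. Between 59.5% and 65.0% of the probes were well above background on each array, and no spot was saturated. Precision is limited by the number of arrays. The brighter *Sirt1* probe (A_52_P358612) was higher in the hearts labelled SIRT1 KO, by 0.54 on the log2 scale (standard error, SE, 0.12, limma adjusted p = 0.0332), and the other (A_51_P141152) differed by -0.11 (adjusted p = 0.590). The brighter probe thus goes against the labels, the position of both in the transcript was not analysed here, and every direction is that of the hearts labelled SIRT1 KO against those labelled WT. All 7 cardiomyocyte markers listed were well above background in every heart. The summed linear signal of 8 liver genes, relative to the percentile, was 115 in SIRT1 KO replicate 1 and 59.8 in replicate 4, but 17.9 and 12.5 in replicates 2 and 3, against 10.8 to 26.8 in the WT hearts. The sum of 4 erythroid genes was 221 to 261 in the WT hearts and 174 to 215 in those labelled SIRT1 KO, with no gene past the threshold, and the part of blood or liver RNA in the light chain values was not tested.

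Each myosin head is made of a heavy chain that carries 2 light chains, an essential one and a regulatory one, which stiffen its lever arm. The heart uses chamber-specific pairs, atrial myosin carrying the essential chain Myl4 and the regulatory chain Myl7, and ventricular myosin carrying Myl3 and Myl2, while smooth muscle and non-muscle myosin use Myl6 and Myl9. Phosphorylation of the regulatory chain by a calmodulin-dependent kinase raises contraction, and the myosin phosphatase removes it. In the early embryonic heart the atrial chains are also made in the ventricle, which loses them as it matures.

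None of the 14 probes differed between the genotypes at an adjusted p of 0.05 with limma, whereas 4.93% of all probes tested did. None had an unadjusted p under 0.05 either, against 21.5% of all probes, and in none did the 4 values of 1 genotype lie wholly beyond those of the other, against 13.8%. By the methods' analysis of variance 0 of the 14 passed after adjustment and 0 had an unadjusted p under 0.05, where 2.03% and 20% of all probes did. Of the 14 probes 10 were fitted lower in the hearts labelled SIRT1 KO and 4 higher, with a median log2 fold change of -0.11, against 0.01 over all probes tested. The median of the 14 was -0.045 without SIRT1 KO replicate 4 and -0.073 without WT replicate 2, and it was -0.24 with median scaling and -0.33 without scaling, where that of all probes was -0.12 and -0.21. The adjusted p-values from limma lay between 0.240 and 0.888. The SEs ran from 0.07 for a *Mylk* probe to 0.40 for a *Myl1* probe, with a median of 0.12 over the 14 and 0.10 over all probes.

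**Figure D1:**
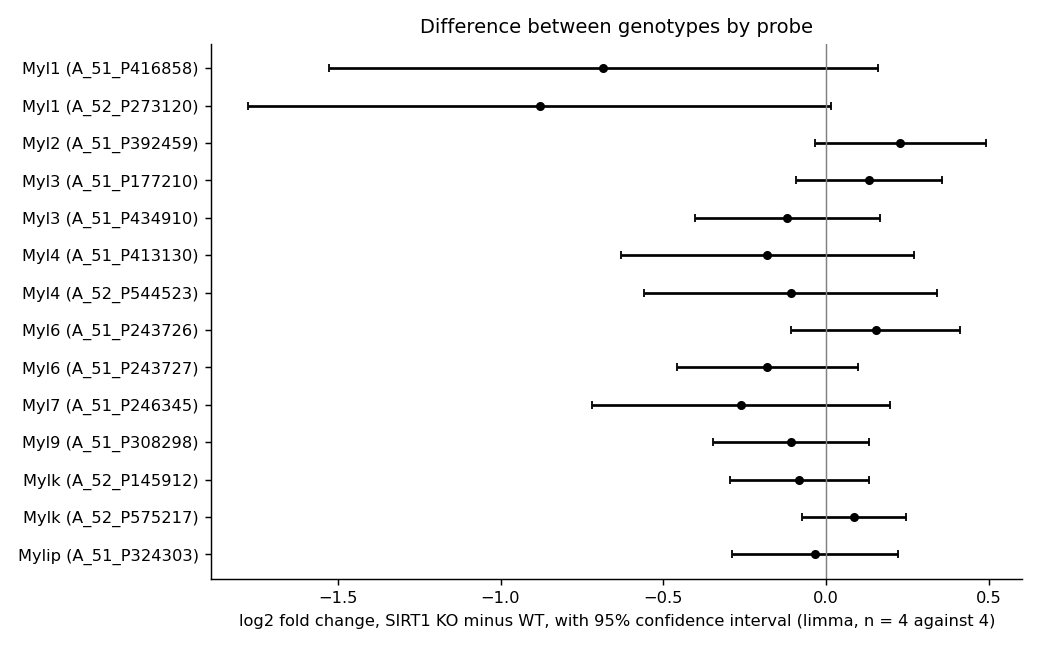
The log2 fold change of each of the 14 tested probes, hearts labelled SIRT1 KO minus WT (x axis, log2 units), with its 95% CI from limma, 4 hearts against 4. All 14 intervals include 0, the widest being those of the 2 *Myl1* probes.

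The atrial chains *Myl7* and *Myl4* and the fast skeletal muscle chain *Myl1* had lower means in the hearts labelled SIRT1 KO, with a wide spread from heart to heart and values of the genotypes that overlapped. *Myl7*, the atrial regulatory chain, had log2 signals of 7.18, 7.78, 7.39 and 7.31 in WT replicates 1 to 4 and of 6.80, 7.72, 6.98 and 7.12 in SIRT1 KO replicates 1 to 4. Its highest value in each genotype was that of replicate 2, and SIRT1 KO replicate 2 was the only heart of its group within the WT range. The log2 fold change was -0.26 (SE 0.20, 95% confidence interval, CI, -0.72 to 0.20, limma adjusted p = 0.487). It stood at -0.14 without WT replicate 2 or without SIRT1 KO replicate 1, and at -0.45 without SIRT1 KO replicate 2.

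*Myl4*, the essential chain of atrial and embryonic myosin, had log2 signals of 6.17, 6.77, 6.32 and 6.34 on its brighter probe (A_51_P413130) in the WT hearts and of 5.94, 6.75, 6.26 and 5.93 in those labelled SIRT1 KO. Here too replicate 2 was the highest of each genotype, and SIRT1 KO replicates 1 and 4 lay below every WT heart. Its log2 fold change was -0.18 (SE 0.20, 95% CI -0.63 to 0.27, limma adjusted p = 0.636), and on the other probe (A_52_P544523) it was -0.11 (SE 0.20, limma adjusted p = 0.788). On the brighter probe, leaving out WT replicate 2 gave -0.056 and leaving out SIRT1 KO replicate 2 gave -0.36, while it was -0.088 and -0.084 without SIRT1 KO replicates 1 and 4.

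*Myl1* encodes the essential light chain of fast skeletal muscle, and its transcripts differ in their first exons. Its 2 probes were matched through different RefSeq transcripts, and both were well above background in every heart. The brighter probe (A_51_P416858) gave log2 signals of 4.34, 5.44, 4.59 and 4.50 in the WT hearts and of 3.47, 5.07, 4.11 and 3.47 in those labelled SIRT1 KO. SIRT1 KO replicate 2 was above 3 of the 4 WT hearts, while the remaining 3 hearts labelled SIRT1 KO lay below all of them. Between the genotypes it differed by -0.68 (SE 0.37, limma adjusted p = 0.326), a level of 0.622 times that of WT with a 95% CI from 0.347 to 1.12. On the dimmer probe (A_52_P273120) the same held, with log2 signals of 0.87, 1.84, 1.01 and 0.72 in the WT hearts and of -0.40, 1.37, 0.26 and -0.31 in those labelled SIRT1 KO. Its log2 fold change was the lowest of the 14 probes, -0.88 (SE 0.40, 95% CI -1.77 to 0.02, limma adjusted p = 0.240). Without SIRT1 KO replicate 2 the 2 probes stood at -1.03 (adjusted p = 0.104) and -1.26 (adjusted p = 0.0563), and without WT replicate 2 the brighter stood at -0.44 (adjusted p = 0.559), all from limma.

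**Figure D2:**
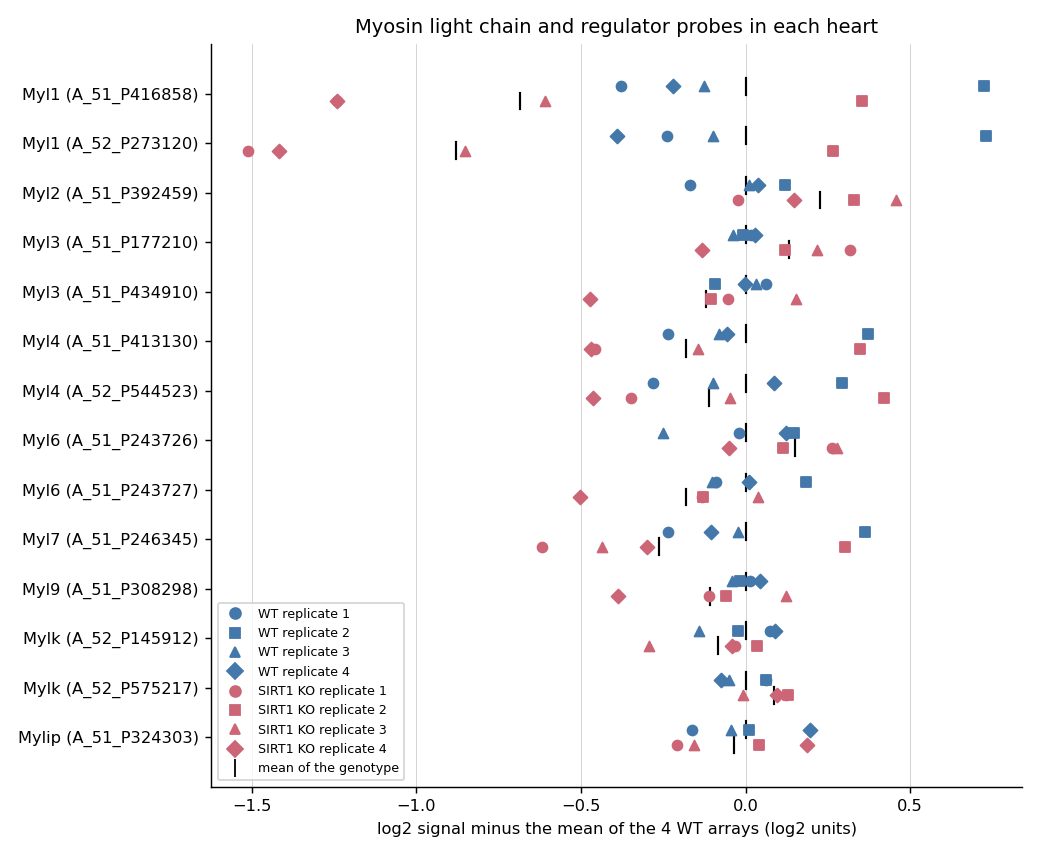
The log2 signal of the 14 tested probes in each of the 8 hearts, less the mean of the 4 WT hearts of the same probe (x axis, log2 units), with WT in blue, SIRT1 KO in red, the shape for the replicate number and black ticks at the means. The 2 *Myl1* probes spread over the widest range, and replicate 2 (squares) is the rightmost of both genotypes for *Myl1*, *Myl4* and *Myl7*.

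The spread within a genotype set these 3 genes apart from the other light chains. The SD of log2 signal around the genotype means was 0.64 and 0.68 on the 2 *Myl1* probes, and 97.7% and 97.9% of all probes tested had a smaller one. For *Myl4* it was 0.33 on both probes and for *Myl7* it was 0.34, larger than in 89.4% and 90.0% of the probes. The median over all probes tested was 0.15, and the other light chain and regulator probes lay between 0.07 for *Mylk* and 0.19 for *Myl3*.

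The 3 genes also deviated from the genotype means in the same hearts. Over the 8 arrays, with the genotype means removed, *Myl1* and *Myl4* had a Pearson r of 0.996, the highest of each among 12831 genes compared. In SIRT1 KO replicate 2 *Myl1* stood 1.04 above the mean of its genotype and *Myl4* 0.53 above it. *Myl7* had an r of 0.91 with both. *Nppa*, which encodes the atrial natriuretic peptide, and *Sln*, an atrial regulator of the calcium pump, had an r of 0.94 and 0.86 with *Myl1*, and *Sln* had one of 0.96 with *Myl7*. Of the ventricular genes, *Hey2*, *Pln* and *Irx4* had an r of -0.88, -0.51 and -0.39 with *Myl1*, and the ventricular chain *Myl2* had one of 0.68. These values describe 8 arrays that share slides and scaling, and every light chain or regulator gene had at least 3 genes with an r of 0.966 or more. For *Myl1* the next were *Adgrg2* and *Cracd*, for *Myl4* they were *Adgrg2* and *Gpx3*, and for *Myl7* the first 3 were *Slc7a7*, *Kcnj3*, a potassium channel gene of the atrium, and *Mybphl*, a gene of the atrial thick filament.

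**Figure D3:**
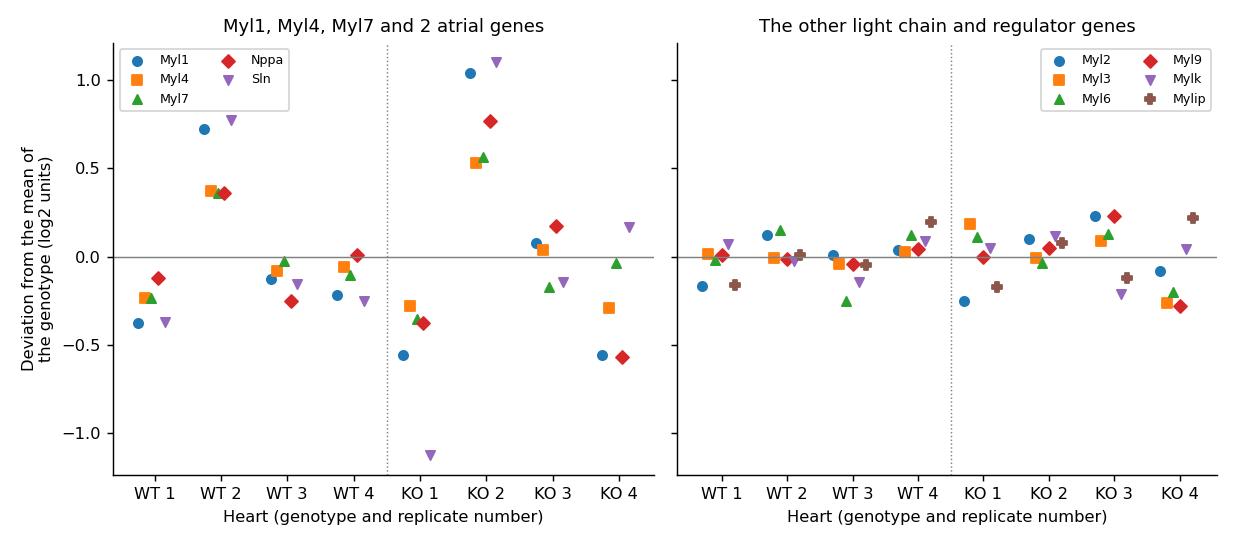
The deviation of each heart from the mean of its genotype (y axis, log2 units) on the brightest probe of each gene, for *Myl1*, *Myl4*, *Myl7*, *Nppa* and *Sln* (left) and for the remaining light chain and regulator genes (right). On the left, WT replicate 2 and SIRT1 KO replicate 2 stand above 0 for all 5 genes, and on the right all values lie within 0.28 of 0.

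The atrial marker list, set beside these 3 genes, had an r with *Myl1* from 0.50 for *Tbx5* to 0.94 for *Nppa* over its 6 measured genes. Without the light chains it held 7 genes, 6 of them well above background in every heart, while *Nr2f1* was not above background in any. Its summed linear signal, relative to the percentile of the array and mostly that of *Nppa* and *Sln*, was 390 in WT replicate 2 and 388 in SIRT1 KO replicate 2. It lay between 245 and 281 in the other WT hearts and between 161 and 239 in the other hearts labelled SIRT1 KO, and none of the 6 tested genes differed between the genotypes past the threshold. In RNA of whole hearts, fewer cells of a type and less RNA per cell cannot be told apart, and the part of atrial tissue in the *Myl1*, *Myl4* and *Myl7* values was not tested. Of 12 skeletal muscle markers 7 were well above background on all arrays, while *Myf5* and *Myf6* were above it on none. Their summed signal, mostly that of *Ckm*, was 60.4 to 72.7 in the WT hearts and 54.5 to 70.9 in those labelled SIRT1 KO. The troponin gene *Tnni2* and the myogenic factor *Myog* were higher in the latter, by 0.62 and 0.51 on the log2 scale (limma adjusted p = 0.0223 and 0.0304). They were 2 of the 7 tested, against 4.62% of all genes tested. Of the other 5, which did not pass, *Acta1* was fitted higher, by 0.36, and 4 were fitted lower, from -0.36 for *Tnnt3* to -0.083 for *Mybpc2*. *Myog* was dim, with a mean log2 signal of -5.45 in the WT hearts and -4.94 in those labelled SIRT1 KO. At a like level, -5.37 and -5.13, *Actn3* was well above background on only 3 arrays. The r of 5 skeletal markers with *Myl1* ran from -0.32 for *Tnnt1* over -0.14 for *Tnni2* to 0.75 for *Tnnt3*. The part of skeletal muscle RNA in the *Myl1* values was not tested.

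The bases before the start of these 3 genes are shown because the genes deviated together. Each run is the 170 bases before the start that RefSeq gives on GRCm38.p6, read 5′ to 3′ on the strand of the gene, at chr11:5898783-5898952 on the minus strand for *Myl7*, chr11:104550493-104550662 on the plus strand for *Myl4* and chr1:66945057-66945226 on the minus strand for *Myl1*. Capitals mark a CArG box, the element that serum response factor binds in many muscle genes, searched on both strands.
Myl7: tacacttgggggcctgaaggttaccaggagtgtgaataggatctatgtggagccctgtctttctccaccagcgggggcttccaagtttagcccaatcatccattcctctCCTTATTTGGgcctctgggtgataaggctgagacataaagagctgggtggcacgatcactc
Myl4: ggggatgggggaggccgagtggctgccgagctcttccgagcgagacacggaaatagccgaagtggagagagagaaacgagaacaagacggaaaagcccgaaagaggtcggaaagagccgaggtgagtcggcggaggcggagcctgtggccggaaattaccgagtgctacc
Myl1: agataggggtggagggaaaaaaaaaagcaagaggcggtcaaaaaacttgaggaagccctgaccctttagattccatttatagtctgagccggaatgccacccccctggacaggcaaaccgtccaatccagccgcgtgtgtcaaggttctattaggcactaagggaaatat
*Myl7* held a CArG box 61 to 52 bases before its start, and these letters were not in the 250 bases searched before the *Myl4* and *Myl1* starts.

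The ventricular chains differed less between hearts. *Myl2*, the ventricular regulatory chain, had log2 signals of 8.16, 8.45, 8.34 and 8.37 in the WT hearts and of 8.30, 8.66, 8.79 and 8.47 in those labelled SIRT1 KO. All 4 of the latter but replicate 1 were above every WT heart. Between the genotypes *Myl2* differed by 0.23 (SE 0.12, 95% CI -0.03 to 0.49, limma adjusted p = 0.293), the highest of the 14 probes, and by 0.15 without SIRT1 KO replicate 3. Its 3 closest genes by deviations over the 8 arrays were *Tnni3*, a troponin of the heart, *Nsl1* and *Casp1*, with an r of 0.970 to 0.973. With the arrays left unscaled the log2 fold change was 0.01, with median scaling 0.10 and with quantile normalization 0.08.

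*Myl3*, the ventricular essential chain, has 2 probes that pointed in opposite directions. The brighter (A_51_P177210) gave 8.25, 8.23, 8.19 and 8.26 in the WT hearts, whose SD of 0.03 was the smallest WT value of the 14 probes, and 8.55, 8.35, 8.45 and 8.10 in those labelled SIRT1 KO, so that replicate 4 was below all WT hearts and replicates 1 to 3 above them. Its log2 fold change was 0.13 (SE 0.10, 95% CI -0.09 to 0.36, limma adjusted p = 0.481). On the dimmer probe (A_51_P434910) it was -0.12 (SE 0.13, 95% CI -0.40 to 0.16, limma adjusted p = 0.618), with SIRT1 KO replicate 4 again the lowest heart at 4.04. Without that heart the dimmer probe stood at -0.0013 and the brighter at 0.22, without SIRT1 KO replicate 3 the dimmer stood at -0.21, and without SIRT1 KO replicate 1 the brighter stood at 0.069. The brighter probe was at 0.0086 with quantile normalization and at 0.0043 with median scaling. On the brighter probe its 3 closest genes were *Coa6*, *Atp5g3* and *Ndufa1*, genes of mitochondrial respiratory chain complexes or their assembly, with an r of 0.983 to 0.992. The summed linear signal of 4 other ventricular markers, mostly that of *Myh7*, was 356 to 412 in the WT hearts and 405 to 540 in those labelled SIRT1 KO, and none of the 4 passed the threshold on its brightest probe, although a dimmer *Myh7* probe did (A_52_P88033, limma adjusted p = 0.0297). The other 3 differed by 0.13 (*Irx4*), 0.056 (*Pln*) and -0.014 (*Hey2*).

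Atrial and ventricular chains can also be set against each other within an array. There a scaling that takes the same amount off every probe of the array drops out, but quantile normalization does not. Under quantile normalization the brightest probes stood at -0.29 (*Myl7*), 0.08 (*Myl2*), -0.15 (*Myl4*) and 0.0086 (*Myl3*). The log2 signal of *Myl7* less that of *Myl2* was lower by 0.49 in the hearts labelled SIRT1 KO than in WT. On the brightest probe of each gene the same shift was -0.31 for *Myl4* less *Myl3* and -0.08 for *Myl7* less *Myl4*. The first is closer to 0 on the dimmer *Myl3* probe, whose own log2 fold change was -0.12 and not 0.13. In each of these 3 comparisons the values of the genotypes overlapped.

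*Myl6* and *Myl9* encode the essential and the regulatory chain of smooth muscle and non-muscle myosin. *Myl9* gave log2 signals of 8.18, 8.15, 8.12 and 8.21 in the WT hearts and of 8.05, 8.10, 8.29 and 7.78 in those labelled SIRT1 KO. Replicate 3 of the latter was the highest heart and replicate 4 the lowest. The log2 fold change was -0.11 (SE 0.11, 95% CI -0.35 to 0.13, limma adjusted p = 0.586), with -0.016 without SIRT1 KO replicate 4 and -0.19 without SIRT1 KO replicate 3. Its closest genes were *Ccdc167*, *BC004004* and *Tmem256* (r 0.981 to 0.986). All 8 smooth muscle markers listed were well above background in every heart, with a summed signal of 145 to 179 in the WT hearts and 136 to 192 in those labelled SIRT1 KO, and none passed the threshold.

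On its 2 probes *Myl6* differed by 0.15 (A_51_P243726, SE 0.11, limma adjusted p = 0.477) and by -0.18 (A_51_P243727, SE 0.12, limma adjusted p = 0.426). The first stood at 0.068 without WT replicate 3, and the second at -0.12 without WT replicate 2 and at -0.074 without SIRT1 KO replicate 4. The first gave 7.38, 7.55, 7.15 and 7.52 in the WT hearts and 7.66, 7.51, 7.68 and 7.35 in those labelled SIRT1 KO, and the second gave 7.35, 7.62, 7.34 and 7.45 in the WT hearts and 7.30, 7.31, 7.48 and 6.94 in those labelled SIRT1 KO. Neither separated the genotypes, but the first less the second did, with -0.19 to 0.07 in the WT hearts and 0.20 to 0.41 in those labelled SIRT1 KO. This shift was 0.33 (two-sided exact permutation p = 0.0286, the smallest that 4 against 4 allow). The difference between the 2 *Mylk* probes did not overlap either, with a shift of -0.17 (two-sided exact permutation p = 0.0286). These were 2 of the 5 genes with 2 tested probes compared in this way, against 10.6% of the 3758 such probe pairs on the array. On the first probe the genes closest to *Myl6* were *Ptbp1*, *Rps23* and *Nme2* (r 0.966 to 0.968). Probe positions and sequences were not used here, so that what sets the probes of a gene apart was not tested.

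*Mylk* encodes the calmodulin-dependent kinase that phosphorylates the regulatory chain in smooth muscle and non-muscle cells. Its brighter probe (A_52_P145912) gave log2 signals of 0.93, 0.84, 0.72 and 0.95 in the WT hearts and of 0.83, 0.90, 0.57 and 0.82 in those labelled SIRT1 KO, with replicate 3 the lowest of each genotype. Its log2 fold change was -0.08 (SE 0.09, 95% CI -0.30 to 0.13, limma adjusted p = 0.650), with -0.012 without SIRT1 KO replicate 3, -0.053 without WT replicate 4 and -0.13 without WT replicate 3. The dimmer probe (A_52_P575217) differed by 0.09 (SE 0.07, 95% CI -0.08 to 0.25, limma adjusted p = 0.524), and 4.53% of all probes tested had a smaller spread within the genotypes. *Mylk3*, the cardiac light chain kinase, has no value here.

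*Mylip* encodes a ubiquitin ligase that was named for its binding to the regulatory light chain and that targets lipoprotein receptors for degradation. Its tested probe (A_51_P324303) gave log2 signals of 1.06, 1.23, 1.17 and 1.42 in the WT hearts and of 1.01, 1.26, 1.06 and 1.41 in those labelled SIRT1 KO. In both genotypes replicate 4 was the highest heart and replicate 1 the lowest, and the ranges overlapped. Its log2 fold change of -0.03 (SE 0.11, 95% CI -0.29 to 0.22, limma adjusted p = 0.888) was the closest to 0 of the 14 probes. Its closest genes by deviations were *Pcnx3*, *Phlpp2* and *Cdh6* (r 0.973 to 0.978).

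The CArG box was also found before the starts of 3 other light chains, which are shown for comparison with *Myl7*. The runs are again the 170 bases before the start on GRCm38.p6, 5′ to 3′ on the strand of the gene, at chr9:110763508-110763677 on the plus strand for *Myl3*, chr2:156775294-156775463 on the plus strand for *Myl9* and chr10:128493010-128493179 on the minus strand for the second of the 2 *Myl6* starts, and capitals mark the box.
Myl3: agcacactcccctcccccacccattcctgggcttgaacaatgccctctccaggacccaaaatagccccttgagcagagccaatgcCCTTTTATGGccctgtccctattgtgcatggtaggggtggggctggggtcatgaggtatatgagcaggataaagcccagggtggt
Myl9: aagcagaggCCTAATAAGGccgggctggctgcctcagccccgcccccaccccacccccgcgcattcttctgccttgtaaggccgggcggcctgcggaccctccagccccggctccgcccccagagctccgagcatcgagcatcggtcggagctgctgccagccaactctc
Myl6: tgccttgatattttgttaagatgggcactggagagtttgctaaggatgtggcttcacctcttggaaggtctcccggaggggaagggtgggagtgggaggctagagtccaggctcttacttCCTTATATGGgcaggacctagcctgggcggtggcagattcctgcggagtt
The box lay 85 to 76 bases before the start in *Myl3*, 161 to 152 bases before it in *Myl9* and 50 to 41 bases before it in *Myl6*. It was present in the 250 bases before 4 of the 13 starts of the 10 genes, and in 1.47% of the 32851 starts in the RefSeq table. The E-box CANNTG was before 7 of the 13 starts and 66.2% of all starts, GATAA before 5 and 22.6%, CATTCC before 5 and 12.6%, and TATAAA before 3 and 12.4%, with both strands searched for each. A MEF2 site was in none of the 13 and in 2.92% of all starts. On the brightest probe of each, the genes with a CArG box had log2 fold changes on both sides of 0, from -0.26 for *Myl7* to 0.15 for *Myl6*. The other probes of *Myl6* and *Myl3* were fitted lower, at -0.18 and -0.12, and none of these genes passed the threshold. A match describes the letters only.

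Around the light chains, 5 lists held 56 genes of the same machinery, of which 49 were tested on 1 probe a gene, the brightest. No gene of the 49 reached a limma adjusted p of 0.05, against 4.62% of the 13600 genes tested. Of the 49 genes 12 had an unadjusted p under 0.05, against 20.4% of all genes, and 22 were fitted higher and 27 lower, with a median log2 fold change of -0.02 against -0.01 over all genes. By the methods' analysis of variance none of the 49 passed after adjustment.

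Of the other light chain and light chain kinase genes 4 of 7 were tested, 1 fitted higher and 3 lower, with a median of -0.10. Their smallest p-values belonged to the non-muscle regulatory chains *Myl12a*, with a log2 fold change of -0.15 (limma adjusted p = 0.443), and *Myl12b*, with -0.12 (limma adjusted p = 0.615). Of the myosin phosphatase and its inhibitors 11 of 12 were tested, 4 fitted higher and 7 lower, with a median of -0.02. *Ppp1cb*, the catalytic subunit of the myosin phosphatase, gave 5.55, 5.78 and 5.60 in WT replicates 1 to 3, with the spot of replicate 4 left out as an outlier, and 5.30, 5.40, 5.51 and 5.36 in the hearts labelled SIRT1 KO. All WT values were the higher ones, with a log2 fold change of -0.25 (SE 0.09, limma adjusted p = 0.175). *Ppp1r12c*, a targeting subunit, differed by 0.19 (limma adjusted p = 0.218).

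All 14 genes of calmodulin and of the other kinases of the regulatory chain were tested, 5 fitted higher and 9 lower, with a median of -0.07. *Stk17b*, a kinase of the death-associated family, gave 0.65, 0.92, 0.84 and 0.58 in the WT hearts and 0.29, 0.23, 0.61 and -0.01 in those labelled SIRT1 KO. Only SIRT1 KO replicate 3 reached the WT range, and the log2 fold change was -0.47 (SE 0.14, limma adjusted p = 0.0888). *Cdc42bpg*, a kinase related to myotonic dystrophy kinase, differed by 0.40 (SE 0.13, limma adjusted p = 0.132).

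The myosin heavy chains, to which the light chains bind, had a median log2 fold change of 0.16, with 10 of 12 tested, 6 fitted higher and 4 lower. *Myh14*, a non-muscle heavy chain, differed by 0.57 (SE 0.16, limma adjusted p = 0.0867) and the embryonic skeletal heavy chain *Myh3* by 0.47 (SE 0.14, limma adjusted p = 0.0942), both with the genotypes wholly apart (two-sided exact permutation p = 0.0286). A dimmer *Myh14* probe (A_52_P663828) was well above background in 0 of the 4 WT hearts and in all 4 labelled SIRT1 KO. It passed the threshold (limma adjusted p = 0.00242), but it met the filter only through the hearts where it was high, so that no size is given and nothing is drawn from the call. A dimmer probe of *Myh7*, the slow heavy chain of the ventricle (A_52_P88033), passed with 0.36 (SE 0.07, limma adjusted p = 0.0297), and on its brightest probe *Myh7* stood at 0.31 (limma adjusted p = 0.141). *Myh7* and these dimmer probes were named after their values were seen.

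Of the lipoprotein receptor and liver X receptor genes around *Mylip* 10 of 11 were tested, 6 fitted higher and 4 lower, with a median of 0.02. *Lrp8*, a lipoprotein receptor that Mylip targets, differed by -1.02 (SE 0.29, limma adjusted p = 0.0863) and was well above background in every WT heart but only in 2 of those labelled SIRT1 KO, so that its size is uncertain. *Rxra*, the partner of the liver X receptors, differed by 0.30 (SE 0.10, limma adjusted p = 0.112), with all 4 hearts labelled SIRT1 KO above the WT hearts.

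**Figure D4:**
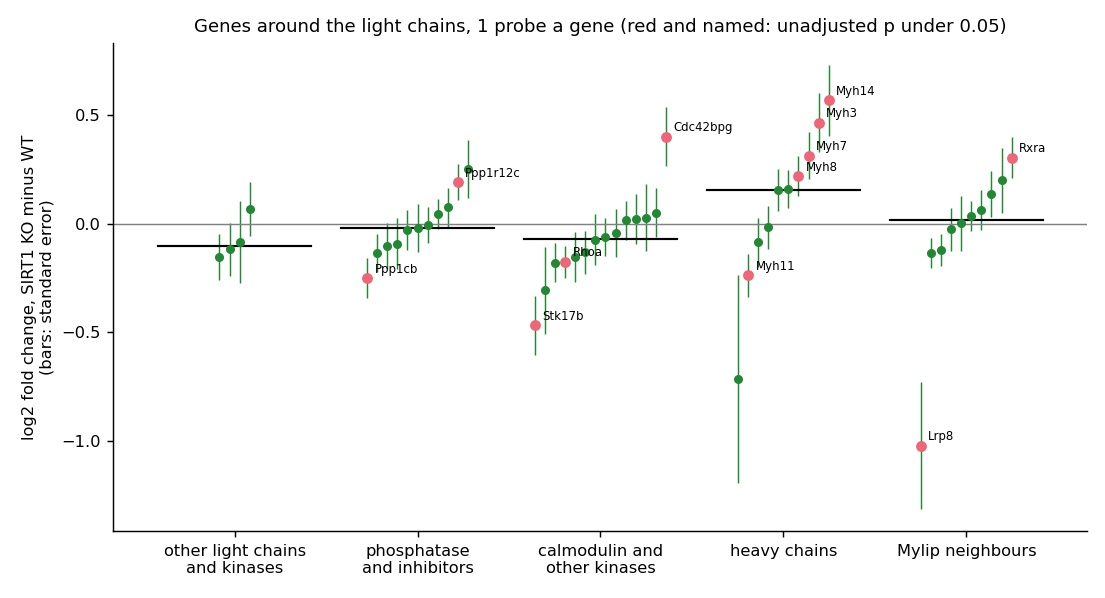
The log2 fold change of the 49 tested genes of the 5 lists, hearts labelled SIRT1 KO minus WT (y axis), on the brightest probe of each gene with its SE, and the median of each list as a black line. The 12 genes with an unadjusted p under 0.05 are red and named, none of them passed after adjustment, and the list medians lie between -0.10 and 0.16.

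The sign of a difference turned with the scaling of the arrays for 1 probe each of *Myl3*, *Myl6* and *Mylk*. The 75th percentile itself was 934 to 1032 intensity units on the WT arrays and 779 to 900 on those labelled SIRT1 KO, and the median of all probes tested moved from 0.01 to -0.12 with median scaling and to -0.21 without scaling. Both *Myl1* probes, both *Myl4* probes and *Myl7* were fitted lower under all 5 scalings tried. So were *Myl9*, *Mylip* and the other probe of each of *Myl3*, *Myl6* and *Mylk*. Unscaled, 13 of the 14 probes were lower, all but *Myl2*, and with median scaling and quantile normalization 11 and 10 were. The only scaling under which any of the 14 passed the threshold was none at all, where 24.8% of all probes passed. These were the *Myl6* probe A_51_P243727, at -0.40 (limma adjusted p = 0.0459), and *Myl9*, at -0.33 (limma adjusted p = 0.0456).

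**Figure D5:**
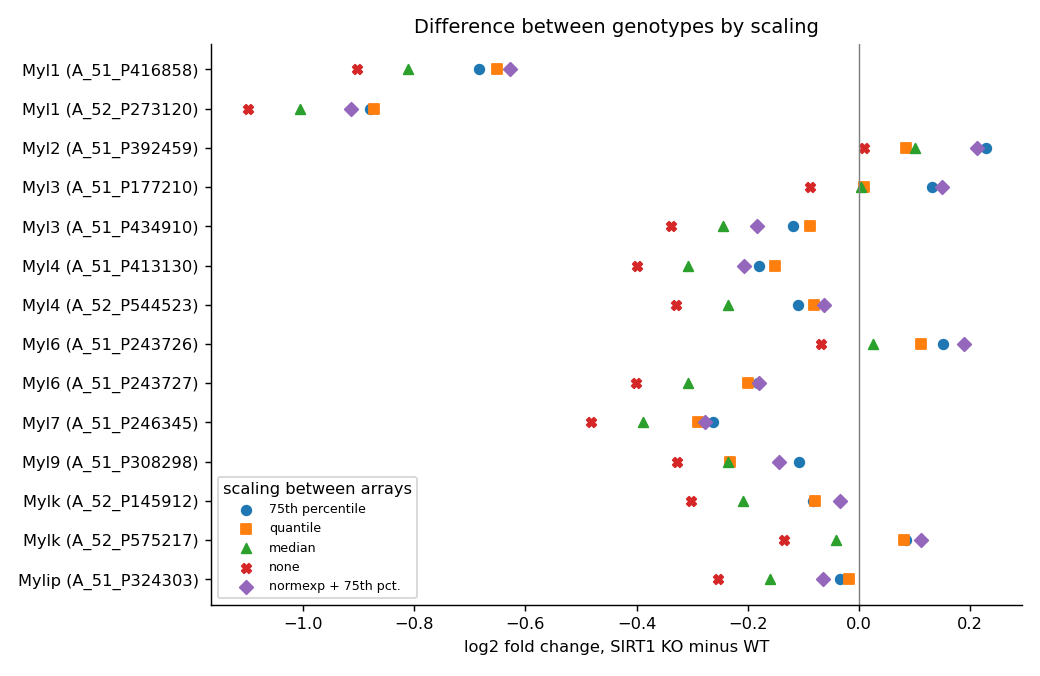
The log2 fold change of the 14 tested probes, hearts labelled SIRT1 KO minus WT (x axis), under 5 ways of scaling the arrays, each marked by its own symbol. The values without scaling (crosses) are the lowest for every probe. All 5 values lie below 0 for *Myl1*, *Myl4*, *Myl7*, *Myl9*, *Mylip* and a probe each of *Myl3*, *Myl6* and *Mylk*.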

How the data were processed

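Whole mouse hearts (E18.5, 4 WT and 4 SIRT1 KO) were profiled on one-color Agilent arrays from 500 ng of total RNA. The authors deposited the processed intensity of every spot from Agilent Feature Extraction (one-color defaults, background subtracted, no scaling between arrays; file headers name version 12.0.0.7). The deposited table of intensity values for the series equals it. Here log2 intensity was taken, the 75th percentile of each array subtracted and spots of a probe averaged, without control and outlier spots. Accessions were matched to RefSeq gene names of GRCm38.p6 (68.5% of probes). Probes well above background on at least 4 arrays were tested with limma 3.58.1 in R 4.3.3 (lmFit, eBayes, checked on simulated data) with Benjamini-Hochberg adjustment at 0.05. The methods' analysis of variance, with genotype as its only factor, was an alternative, besides scalings, background correction, filters, a replicate block and each array left out. Named are all light chain and regulator genes, the 2 smallest p-values of each list and the 3 genes closest to each light chain or regulator gene by the Pearson r of deviations from the genotype means, with exceptions marked in the text; those of *Mylk* are not reported here. Members and lists were chosen with earlier results of these data known. The labels do not say whether same-numbered embryos were littermates.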

Additional observations from a re-analysis of the deposited data

How the results depend on the processing

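With 14 light chain and regulator probes tested, the count past the threshold was 0 under all alternatives but 2, each of which gave 2. Without scaling between arrays, where 24.8% of all probes passed, they were a *Myl6* probe (A_51_P243727) at -0.40 and *Myl9* at -0.33. With the replicate block, where 1169 of all probes passed (4.56%), they were both *Myl1* probes, at -0.68 (adjusted p = 0.0436) and -0.88 (adjusted p = 0.0292, both from limma). Same-numbered arrays lie at the same position of the 2 slides, and the deviations of the same-numbered arrays correlated with r of 0.20, 0.21, 0.06 and 0.14 over 25544 probes. Every array correlated best with its own number, but 1 of the 4 values is under 0.1. The series is described as 4 pairs of hearts, without saying that a number marks a pair, so that the main analysis has no block and whether the *Myl1* call stands depends on this choice. Leaving out both arrays numbered 2, chosen after the data were seen, gave 0 of the 14 and 337 of all probes, with the *Myl1* probes at -0.79 (adjusted p = 0.118) and -1.02 (adjusted p = 0.0588).

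Of all probes 1263 passed, 81.2% of them higher. The count was 6351 without scaling (10.1% higher), 2382 with normexp on the median signal, added after the data were seen, and 519 by the methods' analysis of variance. With 1 array left out it lay between 653 and 1795, the lowest without WT replicate 3 and the highest without SIRT1 KO replicate 3. The higher share was 63.9% of 1053 probes under quantile normalization and 38.8% of 1771 with median scaling. Of the 49 pathway genes 0 passed, but 1 did under quantile normalization, 3 with median scaling, 11 without scaling, 4 with normexp and 1 with the replicate block. With 1 array left out 0 to 2 passed, 1 without SIRT1 KO replicate 2 and 2 without SIRT1 KO replicate 3.

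The sign turned in 10 cases, 8 of them of a single probe and 2 of the mean over the probes of a gene. Without scaling *Myl3* (A_51_P177210) stood at -0.089, *Myl6* (A_51_P243726) at -0.068 and *Mylk* (A_52_P575217) at -0.13, the last also at -0.041 with median scaling. With 1 array left out *Myl4* (A_52_P544523) ranged from -0.29 to 0.0086, the latter without SIRT1 KO replicate 4. *Mylip* ranged from -0.11 to 0.031, and was above 0 in the fits that left out WT replicate 4, SIRT1 KO replicate 1 or SIRT1 KO replicate 3. As a mean over the probes of the gene, *Myl6* stood at -0.015 and *Mylk* at 0.0012. Both probes of *Myl1* and the *Myl7* probe kept their direction under every alternative run. The probes of *Myl2* and *Myl9* and the other probe of each of *Myl3*, *Myl4*, *Myl6* and *Mylk* did so too. The cause of these changes was not tested. The planned normexp correction on the mean signal was not run, as that column was not used here.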
